A study of Homo sapiens with 11 samples.

Results

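This account covers the mRNAs of Rab GTPases and of the proteins that regulate them, among the RNA sites bound by ZFP36L2 in 2 leukaemia lines. The rows were chosen by gene name alone, from the authors' deposited tables of eCLIP peaks over input, as names beginning with RAB and a digit, RAB3GAP, RABGAP, TBC1D and a digit, or DENND and a digit. Rows that carry 2 gene names joined by a bar were left out of the Rab-related set and stayed among the other peaks. This gave 835 of 67083 peaks, in 61 of 6881 named genes, with 175 and 178 peaks in MOLM13 replicates 1 and 2 and 236 and 246 in THP1 replicates 1 and 2. The 61 names comprised 27 Rab GTPases, 19 TBC1D genes, 8 DENND genes, 4 RAB3GAP and RABGAP genes, the Rab11 effector RAB11FIP1, and 2 antisense transcripts, RAB11B-AS1 and RAB30-AS1.

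ZFP36L2 belongs to the TIS11 zinc finger proteins, which recognise AU-rich sequence, mostly in 3' UTRs, and bring decay factors to the mRNA. In eCLIP, protein is crosslinked to RNA in living cells by ultraviolet light, immunoprecipitated, and the bound RNA fragments are sequenced. MOLM13 and THP1 are established human lines of acute myeloid leukaemia, used here without further treatment. Each line had 2 ZFP36L2 immunoprecipitates, set by the authors against 2 IgG immunoprecipitates and against input, with 2 input libraries in MOLM13 and 1 in THP1. Whether both THP1 folds share that input is not stated. Nothing in the labels says that replicates came from separate cultures, so their spread may be technical. No transcript level was measured, and in bulk samples fewer cells and less RNA per cell cannot be told apart.

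Rab GTPases are small membrane-bound switches that mark organelles and direct vesicle budding, transport and fusion. DENN domain proteins load them with GTP, TBC domain proteins stimulate GTP hydrolysis, and effectors such as RAB11FIP1 read the active form. In myeloid cells the pathway serves phagosome maturation, granule secretion and receptor recycling.

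In the deposited tables a peak is a read cluster whose log2 fold over input and whose −log10 p both reach 3. Of all clusters, 10.3% and 7.9% passed in the MOLM13 pair and 12.6% and 13.1% in the THP1 pair, and the clusters below the threshold carry no value over input in the files used here. Folds and p-values per peak are those of the authors' deposited tables, and a gene counts as bound in a line when each replicate has a peak with its name. The lowest folds among the Rab-related peaks were 3.005, 3.004, 3.012 and 3.004 in MOLM13 replicates 1 and 2 and THP1 replicates 1 and 2, and all series of 4 values below follow that order. Values just under the threshold were not analysed here. No source used here gives the read depth of the libraries. Of 10 myeloid genes checked, 8 carried clusters in each immunoprecipitate, with CD14 and ITGAM at 0 in MOLM13 and CD14 and MPO at 0 in THP1. CD3E, CD3D, MS4A1, CD79A and the 3 erythroid and 3 epithelial genes checked had none, while CD4 had 10 to 15 clusters.

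Many Rab-related genes were bound by ZFP36L2 in both replicates of a line. Of the 61 names, 47 were bound in MOLM13, 50 in THP1 and 42 in both lines. These names are the ones with a peak in the tables, which favours high counts, and the matching share of all named genes was not computed. Among protein-coding genes with clusters in every replicate, the names of the family were bound in 47 of 88 cases in MOLM13 (53.4%), where 37.2% of all genes were bound. In THP1 they were bound in 48 of 97 cases (49.5%), beside 40.6% of all genes, and in both lines in 41 of 87 (47.1%), beside 35.2%. These counts include DENND10, listed under its older name FAM45A. The family genes also carried more clusters, with a median of 11.25 per gene and library in MOLM13 and 10.5 in THP1, beside 8 and 7 for all genes. The part of this in the higher share was not tested.

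All 4 genes of the RAB3GAP and RABGAP class and 7 of the 8 DENND genes were bound in both lines, together with 16 of 27 Rab GTPases and 13 of 19 TBC1D genes. These class totals hold only names with a peak in the tables, which favours high counts. Genes of a class without any peak, such as DENND1B, DENND1C and DENND2B, are not counted, and no matching share of all genes was computed. Over all family genes with clusters in every replicate, 47.1% were bound in both lines, beside 35.2% of all genes. RAB10, RAB38, TBC1D22B, TBC1D25 and TBC1D31 were bound in MOLM13 and not in THP1. RAB12, RAB13, RAB31, RAB3D, RAB5A, TBC1D16, TBC1D32 and RAB11B-AS1 were bound in THP1 and not in MOLM13. DENND5B, RAB11A, RAB20, RAB22A, RAB35 and TBC1D19 had peaks but were bound in neither line. A further 26 protein-coding genes with a name of the family had clusters in all 4 immunoprecipitates and no peak under any name. Among them were RAB8A, RAB14, RAB11B, RAB37, TBC1D15, TBC1D22A, DENND1B, DENND1C and DENND2B.

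**Figure D1:**
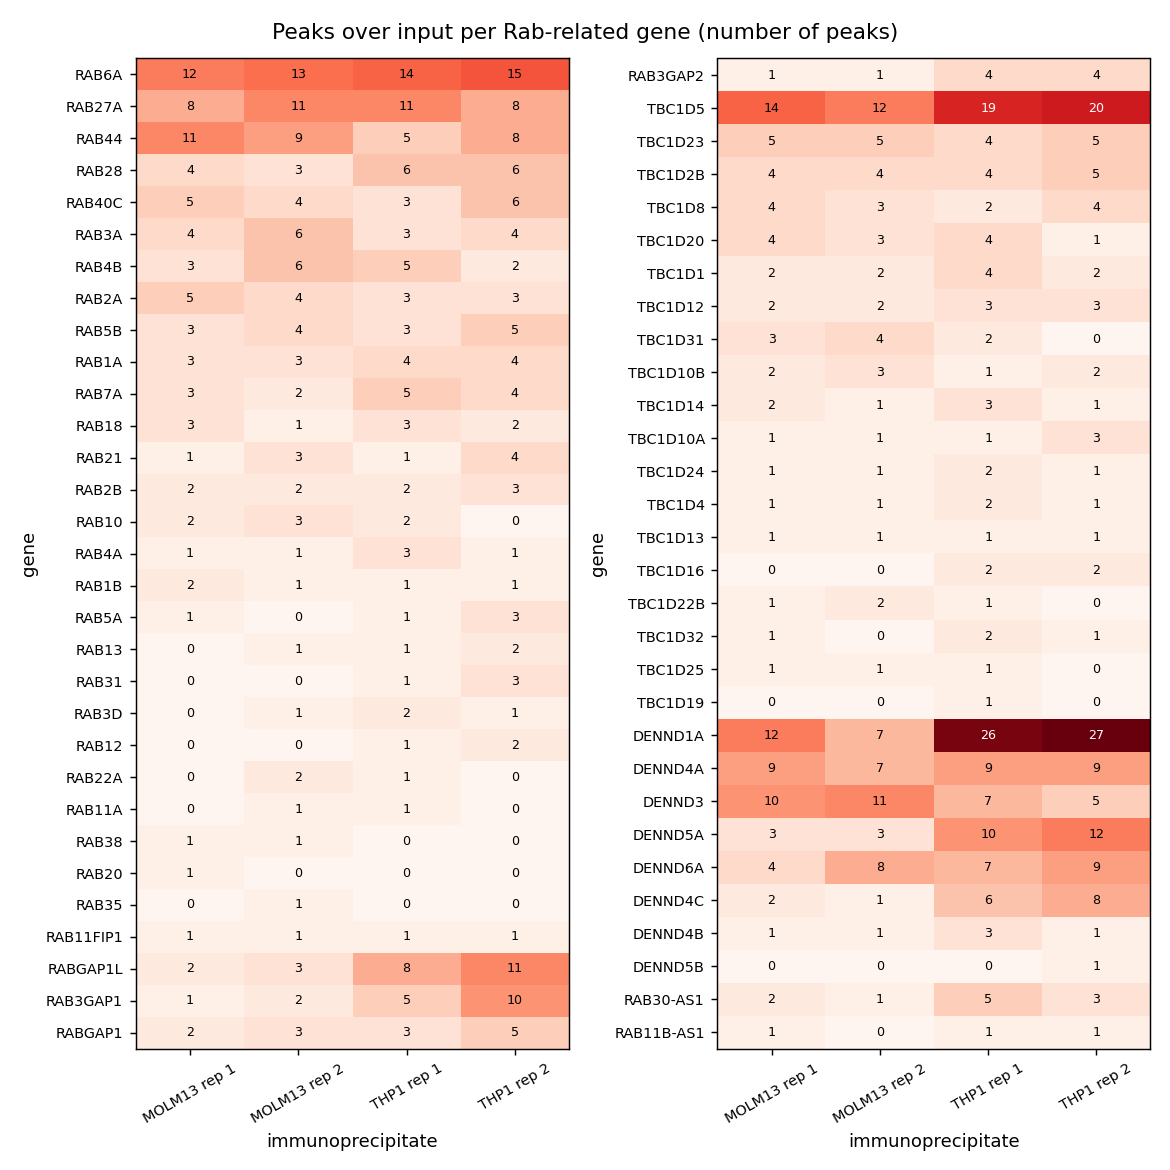
Number of peaks over input for each of the 61 Rab-related genes (rows) in the 4 immunoprecipitates (columns), grouped by class from Rab GTPases to antisense transcripts; darker red means more peaks. DENND1A has the most peaks, with 12 and 7 in the MOLM13 pair and 26 and 27 in the THP1 pair.

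Introns held most Rab-related peaks, followed by 3' UTRs, by the region named in the deposited tables. Of the 835 peaks, 635 were intronic, 152 lay in 3' UTRs, 19 in coding sequence, 9 in 5' UTRs and 20 at splice sites or in noncoding exons. The 3' UTR share was 19.4% (95% Wilson interval 14.2 to 25.9) and 27.5% (21.5 to 34.5) in MOLM13, beside 20.2% and 22.7% for the peaks of all other genes. In THP1 it was 14.8% (10.9 to 19.9) and 13.8% (10.1 to 18.7), beside 16.1% and 16.7%. The share of other genes lay inside the interval of the Rab-related share in all 4 immunoprecipitates, and the intervals cover counting error only. MOLM13 replicates averaged 23.5% ± 5.73 of their Rab-related peaks in 3' UTRs, and THP1 replicates 14.3% ± 0.71 (SD, n = 2 each). An exact permutation test of the lines, two-sided, gave p = 0.333, the smallest that 2 against 2 allows, so no difference between lines can be established by it here or below. The other genes had 21.5% ± 1.78 and 16.4% ± 0.44.

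**Figure D2:**
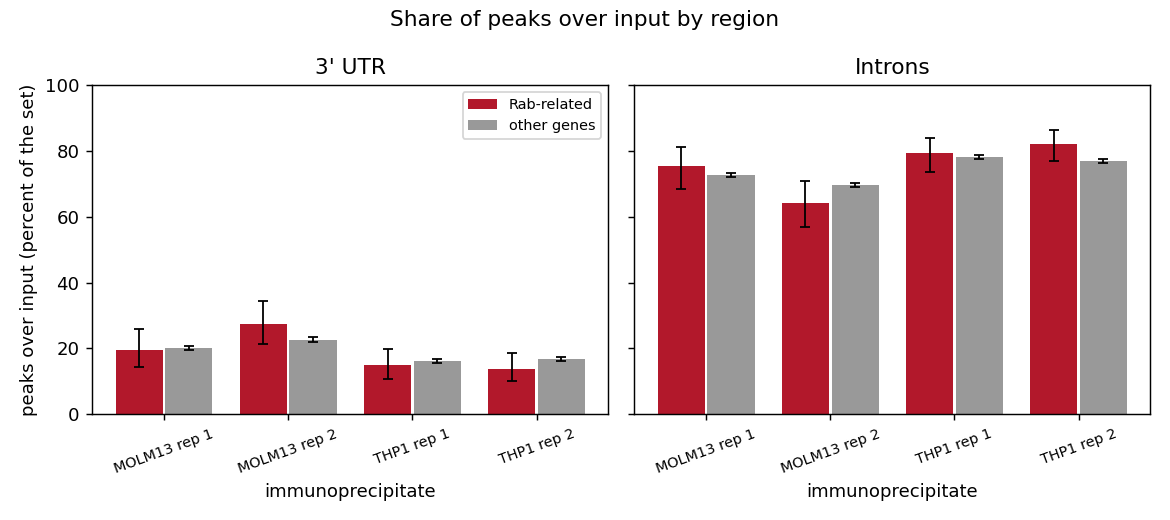
Share of peaks over input lying in 3' UTRs (left) and introns (right), in percent of the peaks of the set, for Rab-related genes (red) and all other genes (grey) in each immunoprecipitate; bars end in 95% Wilson intervals. Rab-related 3' UTR shares run from 13.8% to 27.5%.

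By count of peaks, the classes differed in where their peaks lay. Rab GTPase mRNAs had 18 of 75 and 30 of 83 peaks in 3' UTRs in MOLM13, and 18 of 82 and 20 of 87 in THP1. The TBC1D mRNAs had 12 of 49 and 14 of 46, and 9 of 59 and 6 of 52. DENND mRNAs had only 3 of 41 and 4 of 38, and 5 of 68 and 5 of 72. The RAB3GAP and RABGAP genes had none in MOLM13 and 2 of 20 and 2 of 30 in THP1. DENND1A alone held 72 of the 219 DENND peaks, all intronic. Counted by gene, a 3' UTR peak was held by 3 of 7, 3 of 7, 4 of 7 and 4 of 8 DENND genes with peaks. For Rab GTPases these were 10 of 20, 14 of 23, 14 of 24 and 12 of 21, closer to the DENND genes than by peaks. These shares were not tested, since peaks of 1 gene share their source.

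Peaks of a gene that touched or overlapped across the 4 tables were joined into 250 sites, of which 47 had a 3' UTR annotation in at least 1 table. Of these 47 sites, 16 had a peak in all 4 immunoprecipitates, 1 site in each of 16 genes, and 14 had a peak in 1 only. At 11 of the 16 the highest peak was also enriched over IgG, by the same thresholds, in all 4. Sites were joined for Rab-related genes only, so no share of all genes stands beside these counts. A related measure is the best reproducible 3' UTR peak per gene and line. It passed IgG in both replicates in 50% of Rab-related and 49.7% of all genes in MOLM13, and in 72.2% and 57.6% in THP1. Of 33 Rab-related 3' UTR sites seen in at least 2 immunoprecipitates, 16 lay within 1000 bases of the 3' end of the gene. The median distance over all 33 was 1179 bases, by the longest RefSeq annotation of GRCh38.p14.

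RAB3A, the Rab of regulated exocytosis best known from synaptic vesicles, had the strongest 3' UTR site of the family. The site lay on chromosome 19, 18197196 to 18197398, minus strand, on hg38. Its log2 folds over input were 8.63 and 7.66 in the MOLM13 pair and 6.36 and 8.34 in the THP1 pair, and over IgG 4.59 and 4.89, and 4.24 and 5.53. Every cluster listed on RAB3A, 4, 6, 3 and 4 in the 4 immunoprecipitates, was part of this site and was enriched over both controls. By the lower of the replicate folds, RAB3A ranked 12 of 1371 MOLM13 genes whose 3' UTR peak was reproducible and 73 of 1449 in THP1.

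RAB1B, which acts between endoplasmic reticulum and Golgi, carried its 3' UTR site on chromosome 11, 66277297 to 66277386, plus strand. Its folds over input were 5.36 and 6.87 in the MOLM13 pair and 4.44 and 4.50 in the THP1 pair, with 5.22 and 3.93, and 4.37 and 4.02 over IgG. The MOLM13 values lay above the THP1 values over input, while over IgG the lines overlapped. TBC1D20, a GTPase-activating protein for RAB1, had folds over input of 5.04 and 5.18 in the MOLM13 pair and 4.33 and 4.08 in the THP1 pair at chromosome 20, 437060 to 437332, minus strand. Over IgG its highest peaks had only 2.06 and 2.24, and 2.09 and 3.08, and none of these passed both IgG thresholds. A lower peak of the same site passed them in THP1 replicate 1, at 3.67.

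RAB21, an early endosomal Rab linked to integrin traffic, showed the reverse order of lines. At chromosome 12, 71786311 to 71786427, plus strand, its folds over input were 4.48 and 4.91 in the MOLM13 pair and 5.99 and 6.10 in the THP1 pair. Over IgG they were 3.82 and 4.14 in the MOLM13 pair and 5.75 and 5.10 in the THP1 pair, so the groups did not overlap with either control. Both folds share the immunoprecipitate, and how many sites separate the lines in this way was not counted. The recycling Rabs RAB4A and RAB4B were both bound. RAB4B had 6.12 and 5.79 over input in the MOLM13 pair and 6.94 and 7.65 in the THP1 pair, and 5.95, 5.24, 4.11 and 4.65 over IgG, at chromosome 19, 40796778 to 40796937, plus strand. This site ends 5 bases before the annotated end of the gene. Its highest peak was annotated as 3' UTR in THP1 replicate 1 and as noncoding exon in the other three tables. RAB4A had lower folds, 3.01 and 5.11 in the MOLM13 pair and 3.86 and 3.52 in the THP1 pair.

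RAB2B, a Rab of the early secretory pathway, had 3.74 and 6.20 over input in the MOLM13 pair and 4.78 and 4.35 in the THP1 pair (chromosome 14, 21459532 to 21459694, minus strand). Over IgG it had 3.02 and 4.84, and 4.54 and 3.35. A neighbouring 3' UTR site of RAB2B was found in 3 immunoprecipitates. RAB10, an exocytic Rab, had a 3' UTR site in 3 immunoprecipitates, with 3.74 and 5.29 in MOLM13 and 3.11 in THP1 replicate 1. In THP1 replicate 2 the cluster there did not reach the thresholds over input, and its log2 fold over IgG was 4.66. RAB11FIP1 had a 3' UTR peak as its only peak in each table, with 4.03 and 5.999 in the MOLM13 pair and 4.15 and 6.27 in the THP1 pair (chromosome 8, 37860712 to 37860814, minus strand), and all 4 were enriched over IgG.

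DENND4B, an exchange factor for RAB10, had a strong site in both lines. At chromosome 1, 153929703 to 153929839, minus strand, its folds over input were 6.14 and 6.47 in the MOLM13 pair and 6.92 and 6.82 in the THP1 pair. Over IgG they were 3.23 and 3.89, and 4.19 and 5.60, and DENND4B was the highest Rab-related gene by its lower replicate in THP1, at rank 43 of 1449. DENND5A, a Rab6-interacting exchange factor, had 5.74 and 3.95 in the MOLM13 pair and 4.23 and 4.26 in the THP1 pair, with 4.75, 3.92, 3.98 and 4.84 over IgG. Its site, on chromosome 11 from 9138851 to 9139008, minus strand, lay 26 bases from the annotated gene end. DENND3, an exchange factor for RAB12, had 4.65 and 3.31 in the MOLM13 pair and 3.89 and 3.67 in the THP1 pair, 5 bases from the gene end. Its substrate gene RAB12 had a 3' UTR peak in THP1 only, where the fold over input was 4.17 and 4.29 and that over IgG 2.93 and 3.28, and missed the IgG thresholds in both replicates.

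Among the GTPase-activating proteins, TBC1D10A, TBC1D10B and TBC1D13, all of which act on RAB35, had sites in all 4 immunoprecipitates. TBC1D10A had 4.68 and 3.84 in the MOLM13 pair and 5.82 and 6.16 in the THP1 pair, annotated as intron in 3 tables and as 3' UTR in THP1 replicate 2. TBC1D10B had 3.76 and 4.11 in the MOLM13 pair and 3.59 and 4.47 in the THP1 pair, and 3.78 and 5.34, and 3.20 and 4.06 over IgG. TBC1D13 had 4.87 and 3.43, and 4.15 and 3.65 over input. RAB35 itself had 1 peak, in MOLM13 replicate 2, with a fold of 3.43. TBC1D31, a centrosomal family member, had 5.81 and 5.25 in MOLM13 and 3.68 in THP1 replicate 1, and no peak in THP1 replicate 2.

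**Figure D3:**
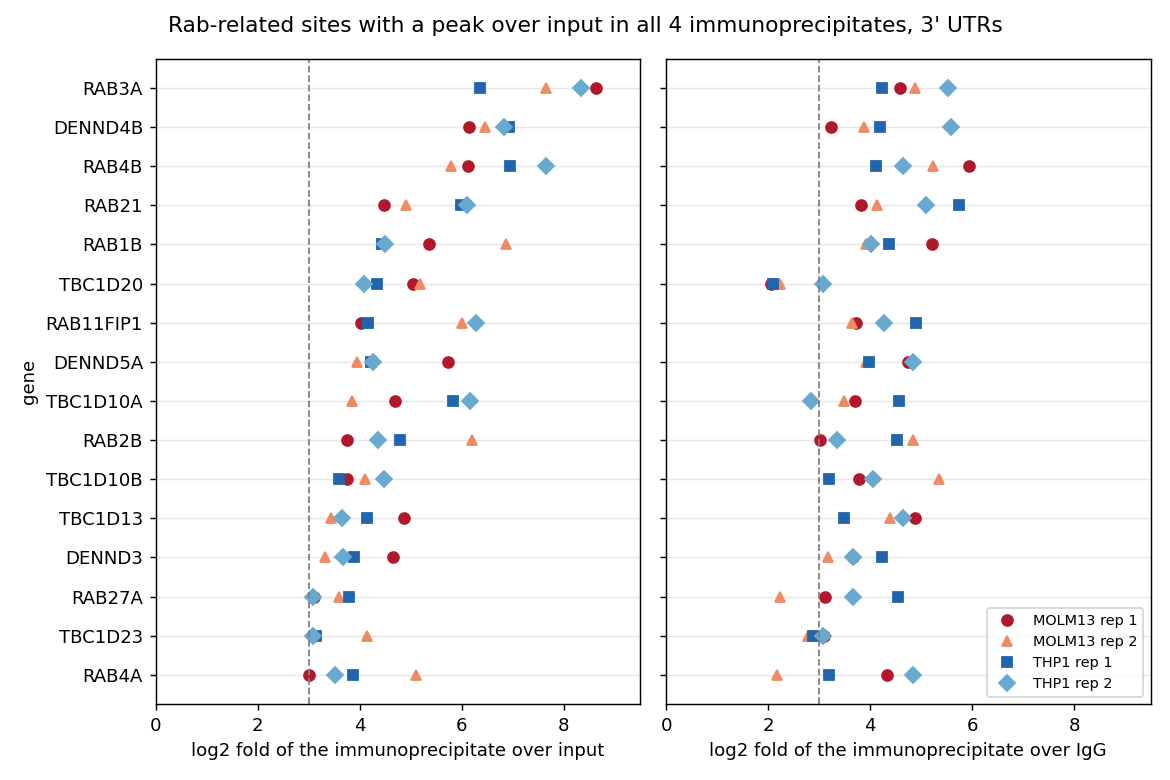
Log2 fold of the immunoprecipitate over input (left) and over IgG (right) for the 16 Rab-related 3' UTR sites with a peak in all 4 immunoprecipitates, 1 row per gene, ordered by the lowest fold over input; each symbol is the highest peak of the site in 1 immunoprecipitate and the dashed line is the threshold of 3. RAB3A leads over input, with 6.36 to 8.63, and TBC1D20 lies at 2.06 to 3.08 over IgG. The RAB4B and TBC1D10A sites are annotated as 3' UTR in 1 table each.

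Against IgG, Rab-related 3' UTR peaks passed the thresholds in 26 of 34 and 22 of 49 cases in MOLM13 and in 23 of 35 and 23 of 34 in THP1. The shares were 76.5% (95% Wilson interval 60.004 to 87.6), 44.9% (31.9 to 58.7), 65.7% (49.2 to 79.2) and 67.6% (50.8 to 80.9). Peaks of 1 gene are not independent, so these intervals cover counting error only. The RAB3A site alone gave 4, 6, 3 and 4 of the peaks that passed. Of all clusters, 5.11%, 2.49%, 5.74% and 8.36% were enriched over IgG, and of the 3' UTR peaks of all genes 59%, 49.7%, 54.6% and 65.1%. Intronic Rab-related peaks passed in 33.3% and 17.5% of cases in the MOLM13 pair and 49.2% and 59.7% in the THP1 pair, beside 40.9%, 20.5%, 41% and 58.8% of all intronic peaks. The 3' UTR share was thus above the intronic share in each immunoprecipitate, by a narrower gap in THP1 replicate 2. The intervals of these shares overlapped in both THP1 replicates, where the intronic ones were 42.1 to 56.3 and 52.8 to 66.2. The low shares of MOLM13 replicate 2 go with a median log2 fold over IgG of −0.60 over all its clusters, where the other libraries had 0.28, 0.0019 and 0.38. What part this has in them was not tested. Over input the order of regions was the reverse, where the median fold was 4.21, 4.08, 4.11 and 4.27 for 3' UTR peaks but 4.61, 4.60, 4.65 and 4.68 for intronic ones. Other genes had the same order. Their medians were 3.97, 4.04, 4.05 and 4.02 for 3' UTR peaks and 4.57, 4.48, 4.64 and 4.63 for intronic ones.

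**Figure D4:**
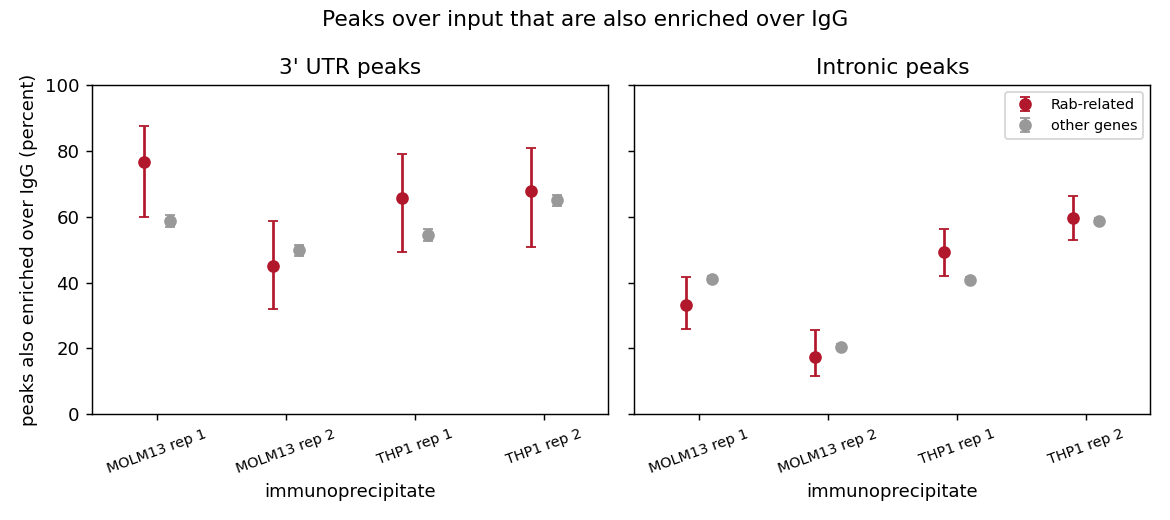
Share of peaks over input that were also enriched over IgG, in percent, for 3' UTR peaks (left) and intronic peaks (right) of Rab-related genes (red) and all other genes (grey); points are shares in 1 immunoprecipitate and bars are 95% Wilson intervals. Rab-related 3' UTR shares run from 44.9% to 76.5% and intronic shares from 17.5% to 59.7%.

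RAB13, a Rab of epithelial junctions whose mRNA is known to localise to cell protrusions, was the one gene with peaks far below IgG. At its 3' UTR site (chromosome 1, 153981832 to 153982098, minus strand, joined over the tables) MOLM13 replicate 1 had no peak and a highest fold over IgG of −0.89. MOLM13 replicate 2 had 3.26 over input and −2.51 over IgG, annotated there as noncoding exon. Both THP1 replicates had 3' UTR peaks, at 4.11 and 4.87 over input, and the same peaks had −3.84 and −3.64 over IgG. A negative value means that IgG held more signal than the ZFP36L2 immunoprecipitate. Among all Rab-related peaks, 0, 2, 1 and 2 lay below IgG in the 4 immunoprecipitates, all in RAB13 except a RAB3D intronic peak at −0.11 in MOLM13 replicate 2.

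**Figure D5:**
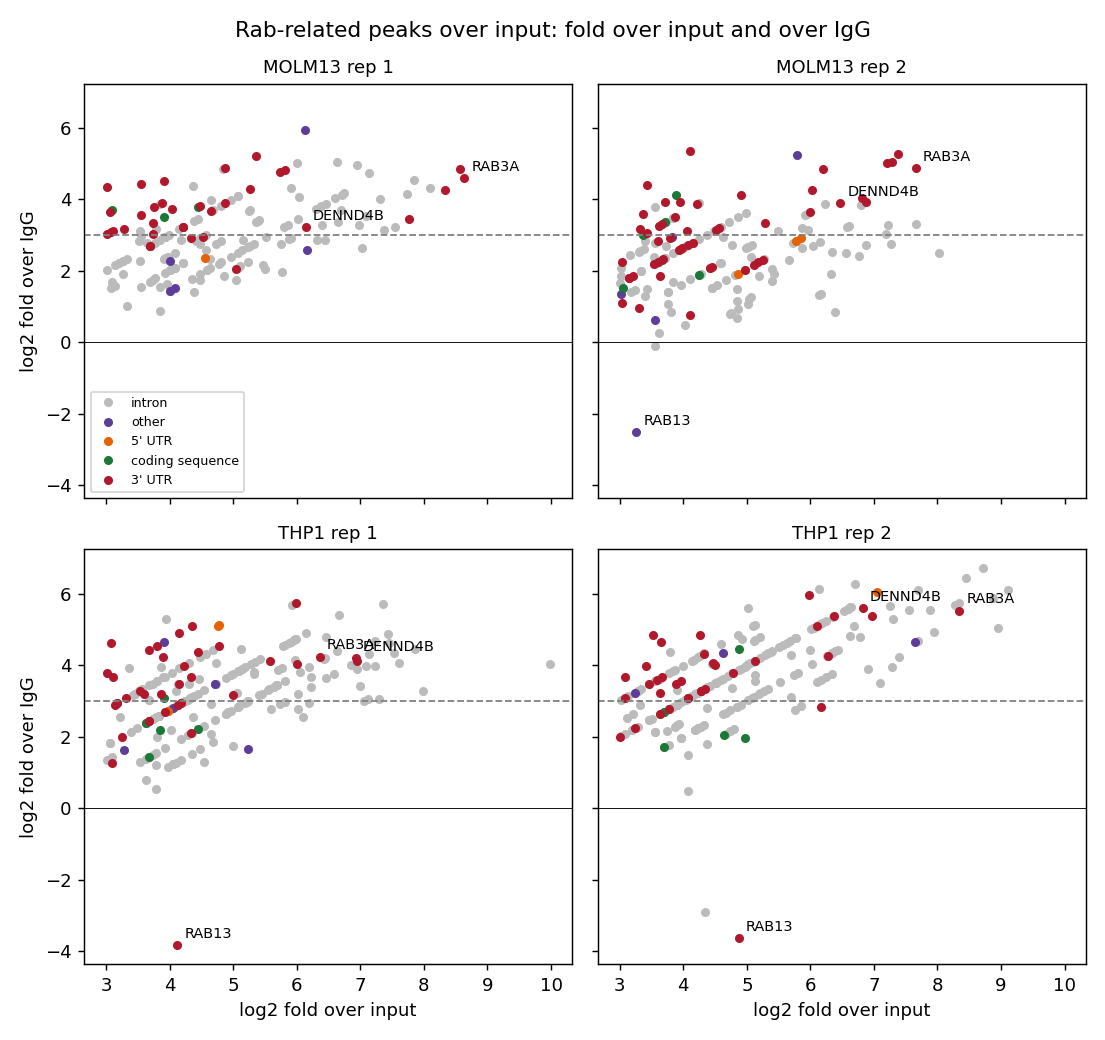
Log2 fold over IgG (vertical) against log2 fold over input (horizontal) for every Rab-related peak, 1 panel per immunoprecipitate, coloured by region; the dashed line is the IgG threshold of 3 and the solid line is 0. RAB13 lies between −2.51 and −3.84 over IgG where it has its highest peak. The diagonal bands are peaks that share 1 difference between the folds.

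Many peaks share a diagonal in that plot. The difference between fold over input and fold over IgG took only 42, 44, 35 and 25 distinct values at 3 decimals among 175, 178, 236 and 245 Rab-related peaks. The most common value held 20.6%, 21.3%, 29.2% and 40.4% of them, and 22.9%, 23.9%, 32.2% and 39.5% of the peaks of other genes. This difference compares the controls, since the immunoprecipitate is common to both folds, so the values over input and over IgG are not separate measurements of it.

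In introns, 186 sites were found, and 64 of them, in 28 genes, had a peak in all 4 immunoprecipitates. The highest, by the lowest of the 4 folds, lay in DENND4A, which like DENND4B activates RAB10, at chromosome 15, 65760444 to 65760560, minus strand. It had 7.73 and 7.28 over input in the MOLM13 pair and 6.85 and 7.55 in the THP1 pair, and 4.16, 2.75, 4.02 and 5.55 over IgG. RAB7A, the Rab of late endosomes and lysosomes, followed with 8.10 and 6.77 in the MOLM13 pair and 7.23 and 8.72 in the THP1 pair (chromosome 3, 128792848 to 128792923, plus strand). Over IgG it had 4.31, 2.41, 3.99 and 6.71, and both genes missed the IgG threshold in MOLM13 replicate 2 only. RAB7A had no 3' UTR peak in any table.

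DENND3 had an intronic site near an exon with 6.64 and 7.66 in the MOLM13 pair and 7.61 and 7.40 in the THP1 pair, enriched over IgG in all 4 (3.38, 3.31, 4.05 and 4.23). RAB40C, a Rab that acts in a ubiquitin ligase, had 7.31 and 6.79 in the MOLM13 pair and 7.46 and 6.64 in the THP1 pair, and 4.00, 3.85, 4.63 and 5.63 over IgG. DENND6A, an exchange factor for RAB14, had 6.38 and 6.60 in the MOLM13 pair and 6.45 and 8.33 in the THP1 pair, again enriched over IgG in all 4. It was the gene with most intronic sites of this kind, 3 of the 10 that passed IgG in all 4 immunoprecipitates.

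Peaks were unevenly spread over genes. DENND1A, TBC1D5, RAB6A and RAB27A held 229 of the 835 peaks (27.4%), while the median gene had 9 over the 4 tables. Across the 61 genes, intronic peaks and gene length had a Spearman rho of 0.49, a description over genes that share the same 4 libraries. DENND1A, the exchange factor for RAB35, spans 550469 bases and had 12 and 7 peaks in the MOLM13 pair and 26 and 27 in the THP1 pair, all in introns. Its clusters numbered 64 and 102 in the MOLM13 pair and 213 and 195 in the THP1 pair, so both were higher in THP1 than in MOLM13, and the part of transcript level was not tested. Of its peaks, 1 and 0 were enriched over IgG in the MOLM13 pair and 16 and 23 in the THP1 pair. Its highest site by the lowest of the 4 folds (chromosome 9, 123743348 to 123743423, minus strand) had 7.03 and 6.38 over input in the MOLM13 pair and 9.98 and 8.96 in the THP1 pair, and 2.65 and 0.86, and 4.03 and 5.05 over IgG.

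TBC1D5, a RAB7A-directed protein that works with retromer, had 14 and 12 peaks in the MOLM13 pair and 19 and 20 in the THP1 pair, on similar cluster numbers of 153 and 189, and 159 and 149. Of these peaks 4 and 2 were enriched over IgG in the MOLM13 pair and 11 and 12 in the THP1 pair. RAB6A, the Golgi Rab of retrograde traffic, had 12 and 13, and 14 and 15. DENND4C had 2 and 1 peaks in the MOLM13 pair and 6 and 8 in the THP1 pair, beside 4 and 6, and 25 and 25 clusters. DENND5A had 3 and 3, and 10 and 12 peaks, beside 24 and 31, and 51 and 44 clusters. In the RAB3GAP and RABGAP class, RABGAP1L had 2 and 3 peaks in the MOLM13 pair and 8 and 11 in the THP1 pair, and RAB3GAP1, a subunit of the RAB3 GTPase-activating complex, had 1 and 2, and 5 and 10. None of the 15 peaks of this class in MOLM13 was enriched over IgG, against 8 of 20 and 17 of 30 in THP1, where 41% and 58.8% of all intronic peaks were. All intronic peaks passed in 40.9% and 20.5% of cases in MOLM13. RAB44, an atypical large Rab, ran the other way in count, with 11 and 9 peaks in the MOLM13 pair and 5 and 8 in the THP1 pair, all intronic.

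RAB27A, the Rab of granule and lysosome-related organelle secretion, was the only family gene with a 5' UTR peak, and it was bound in 3 kinds of region. At its 5' UTR site (chromosome 15, 55314104 to 55314168, minus strand) the folds over input were 4.56 and 5.85 in the MOLM13 pair and 4.77 and 7.05 in the THP1 pair. Over IgG the site had 2.35 and 2.91 in MOLM13, below the threshold, and 5.11 and 6.05 in THP1, above it. An intronic site of RAB27A had 7.13 and 5.97, and 7.36 and 7.88 over input and passed IgG in all 4. Its 3' UTR site was weak, with 3.11 and 3.60, and 3.80 and 3.08.

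Coding sequence held 9 sites, of which 3 had peaks in all 4 immunoprecipitates, in RAB1A, TBC1D23 and, across a 5' splice site, DENND3. RAB1A, the close paralogue of RAB1B, was bound in its coding sequence at chromosome 2, 65104733 to 65104806, minus strand. Its folds over input were 4.44 and 3.89 in the MOLM13 pair and 3.91 and 4.87 in the THP1 pair, and over IgG 3.78 and 4.12, and 3.08 and 4.45, all 4 past the thresholds. RAB1A had a 3' UTR peak only in THP1 replicate 2, with 3.59. TBC1D23, a Golgi adaptor with an inactive TBC domain, had 3.10 and 3.37, and 4.45 and 3.70 at a coding site, and a weak 3' UTR site. The highest peak of the TBC1D23 coding site passed the IgG thresholds in MOLM13 replicate 1 only. At the DENND3 site the highest peak passed them in no immunoprecipitate, while a lower peak had 3.51 over IgG in MOLM13 replicate 1.

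Genes bound in 1 line without any peak in the other were few and had moderate folds. RAB38, a Rab of lysosome-related organelles, was the only such gene in MOLM13, with 4.97 and 4.37 at 1 intronic site, beside 6 and 5 clusters in the MOLM13 pair and 1 and 1 in the THP1 pair. In THP1 there were 3. RAB31, a Rab of trans-Golgi to endosome traffic, had 8 and 6 clusters but no peak in MOLM13, and 18 and 18 clusters with folds of 6.10 and 5.12 at an intronic site in THP1. RAB12 is given above, and TBC1D16, a RAB4 GTPase-activating protein, had 4.99 and 3.84. Over IgG the same peaks had 2.40 and 3.02 in RAB38, 2.54 and 5.12 in RAB31, and 3.75 and 2.84 in TBC1D16. None of these genes, RAB12 included, passed the IgG thresholds in both replicates of its line. Whether these genes differ between the lines was not tested. The antisense transcript RAB30-AS1 had an intronic site in all 4, with 4.58 and 3.73, and 5.33 and 4.93, and RAB11B-AS1 had a noncoding exon peak in 3, with 4.01, 4.05 and 3.24. The RAB30-AS1 site passed the IgG thresholds in the THP1 pair only, and no RAB11B-AS1 peak passed them.

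The replicates overlapped to the degree seen in other genes. Of the Rab-related peaks, 81.7% and 84.8% in the MOLM13 pair and 78.4% and 85.4% in the THP1 pair shared at least 1 base with a peak of the other replicate, beside 78.3%, 83.9%, 81.9% and 85.1% for other genes. Between overlapping peaks, the log2 folds over input differed with an SD of 0.98 over 143 pairs in MOLM13 and 0.92 over 185 pairs in THP1.

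Other genes of the pathway, as named in the tables, were counted from a list of 77 Rab chaperones, prenylation enzymes, other exchange factors, GTPase-activating proteins and effectors. FAM45A and ST5 are on it under older names and, as DENND10 and DENND2B, also enter the family counts over protein-coding genes, so the sets are not fully separate. Of those with clusters in each replicate, 32 of 60 were bound in MOLM13, 38 of 65 in THP1 and 29 of 58 in both lines. The shares were 53.3%, 58.5% and 50%, beside 37.2%, 40.6% and 35.2% of all genes. A 3' UTR peak in every replicate was held by 12 of 60, 14 of 65 and 8 of 58, beside 13.5%, 13.5% and 10.5% of all genes. For the Rab-related genes these were 23 of 88, 19 of 97 and 15 of 87. Among the 8 were RABGGTB, MADD, SBF1, RIC1, EEA1, RILPL2 and WDFY2. EEA1, the tether that binds active RAB5 on early endosomes, had its highest 3' UTR peaks at 6.36 and 5.73 in the MOLM13 pair and 7.36 and 7.30 in the THP1 pair, with 3.56, 3.38, 3.79 and 5.29 over IgG.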

How the data were processed

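The authors deposited, per immunoprecipitate, a table of peaks over input and a list of clusters over IgG. Per the file headers, the values are a −log10 p (a p-value, capped at 400) and a log2 fold, and no source used here gives the authors' scaling, test or peak caller. Tools listed without roles, per the submitters' processing notes, are STAR 2.5.0c, cutadapt 1.14, edgeR and Picard 2.6.0, and the listed builds are hg38, hg19 and GRCh37. Contigs and coordinates fit hg38, and peaks were called per replicate, not on pooled samples.

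Input peaks were tied to IgG clusters by identical coordinates and strand. Overlap meant at least 1 shared base on 1 strand, and enrichment over IgG a log2 fold of at least 3 with a −log10 p of at least 3. Clusters were assigned to RefSeq genes of GRCh38.p14 by coordinates with bedtools 2.31.1, without strand. Of the 61 names, 60 matched a RefSeq symbol and RAB30-AS1 an older one. The RefSeq entry so matched to RAB30-AS1 spans 1647 bases, and the RAB30-AS1 sites lie outside it. Its length in the Spearman rho may thus not be that of the bound transcript. The interval functions were tested on simulated data. Python 3.11.15, pandas 2.3.3 and scipy 1.17.1 were used.

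Members, lists and settings were chosen with earlier results of these data known, and no set test was run. Genes named were, per line, the 10 with the highest reproducible 3' UTR fold, the leading genes per class and region, genes bound in 1 line, those with most peaks, and antisense names. A few others are named to complete small counts. Alternatives were another fold threshold, the IgG control, merged peaks, reproducible peaks and single replicates. No peak sequence was printed, since no genome was used here. Some genes of the marker and pathway lists are not reported here.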

Additional observations from a re-analysis of the deposited data

Results flagged for a closer look

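Rows with 2 gene names, 1 of them Rab-related, were not counted as Rab-related above but held peaks. The rows named RAB5C together with a second transcript reached a log2 fold over input of 4.69 in MOLM13 replicate 2, with 3.85 in MOLM13 replicate 1 and 4.42 in THP1 replicate 2, all in introns. The rows named TBC1D12 together with HELLS reached 4.48 in THP1 replicate 1, with 3.55 in replicate 2.

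At 3 sites the highest log2 fold over IgG had opposite signs in the lines, and the difference was not tested. Each site was listed through a peak over input in 1 immunoprecipitate only, of the line with the positive values. That choice of sites favours such a contrast, and its frequency among the clusters of all genes was not counted. An intronic cluster of RAB3GAP2 had −0.08 and −0.28 in the MOLM13 pair and 2.68 and 3.55 in the THP1 pair, a difference of −3.29 between the line means. An intronic cluster of RAB7A had −0.72 and −0.28 in the MOLM13 pair and 3.29 and 0.96 in the THP1 pair, a difference of −2.62. A noncoding exon cluster of RAB4B had 1.51 and 0.62 in the MOLM13 pair and −1.51 and −1.99 in the THP1 pair, a difference of 2.81.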

How the results depend on the processing

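With a log2 fold over input of at least 4, the genes bound in MOLM13 numbered 29 in place of 47, and with peaks also enriched over IgG 25. In THP1 the counts stayed within 1.5 times under every alternative, between 34 and 57. The 3' UTR share in MOLM13 moved to 42.6% (replicate SD 10.5) among peaks enriched over IgG, where other genes had 33.3%. In THP1 it was 11.2% at the higher fold, 15.1% with touching peaks merged, 12.4% for peaks overlapping the other replicate and 17.4% for peaks enriched over IgG, each past the replicate SD of 0.71. Other genes in THP1 moved the same way from 16.4%, to 12.5% at the higher fold, 15.2% for overlapping peaks and 19.4% over IgG. The share of THP1 3' UTR peaks enriched over IgG was 71.1% with an IgG log2 fold of at least 2 and 75.7% for overlapping peaks, in place of 66.7%. Leaving out a replicate gave 51 to 52 bound genes in MOLM13 and 51 to 57 in THP1. It gave 3' UTR shares of 19.4% to 27.5% and 13.8% to 14.8%, and IgG shares of 44.9% to 76.5% and 65.7% to 67.6%. The IgG share of MOLM13 differed by over 1.5 times between its replicates. No paired analysis was possible because the authors give finished comparisons per immunoprecipitate, with no values per library.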
